A study of Homo sapiens with 6 samples.

Results

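The replication-dependent histone genes were taken as the protein-coding genes whose RefSeq symbol, looked up from the deposited Entrez gene ID, begins with H2AC, H2BC, H3C or H4C or is one of H1-1 to H1-5. By this rule 69 of the 40448 gene IDs were members: 5 linker histone H1 genes, 17 H2A genes, 19 H2B genes, 13 H3 genes and 15 H4 genes. Histone pseudogenes, 13 in all, were left out. Expression was measured by RNA sequencing on the Ion Torrent platform in 6 stable clones of KYSE150, an established line of human oesophageal squamous cell carcinoma. NCCRP1 clones 1, 6 and 17 carried an expression vector for human NCCRP1, whose product has an F-box-associated domain, and mock clones 1, 4 and 5 carried the pIRES2-EGFP vector. Each clone gave 1 library, so a difference between clones and a difference between libraries cannot be told apart, and p-values measure only the spread among these 6 libraries.

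Histone H2A, H2B, H3 and H4 proteins form the core around which DNA is wound in the nucleosome, and H1 binds the linker DNA where it enters and leaves that core. Cells need new histones when they copy their DNA, and the mRNAs of these genes accumulate in S phase and are degraded when replication ends. In most of them the mRNA has no poly(A) tail and ends just after a short stem-loop, which is bound by the stem-loop binding protein SLBP and cut with the help of the U7 small nuclear RNA. Many near-identical copies of each gene lie in clusters, where the coactivator NPAT gathers at the histone locus body. The libraries were made from total RNA depleted of ribosomal RNA, per the labels' protocols, and not from RNA selected by its poly(A) tail.

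Values are log2 RPKM, the logarithm to base 2 of read counts scaled by transcript length and library size, as deposited by the authors. A value under 1 RPKM is listed as 0, and a 0 also stands for genes without an estimate. Reads behind each library, estimated from whole-read steps in the low values, came to 18070000, 15860000 and 14570000 in NCCRP1 clones 1, 6 and 17, and to 12290000, 12690000 and 15960000 in mock clones 1, 4 and 5. The names of the deposited data carry the number 14 for NCCRP1 clones 6 and 17 and mock clone 5, and 15 for NCCRP1 clone 1 and mock clones 1 and 4. This number is taken here as the sequencing run, an inference from the name alone. The transfected gene was listed at 6.19, 8.07 and 6.71 log2 RPKM in NCCRP1 clones 1, 6 and 17 and at 0 in each mock clone (limma, Benjamini-Hochberg adjusted p = 0.00449; two-sided exact permutation p = 0.1, the smallest that 3 against 3 libraries allow). All 7 squamous markers examined were above 0 in every library, all 4 immune markers were at 0, and 5 of 6 fibroblast markers were at 0. Across all genes the libraries correlated with r between 0.971 and 0.990.

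Of the 69 histone genes, 59 were above 0 in every library, 5 were listed at 0 in every library and 5 were above 0 in some libraries. H2AC1, H2BC26, H2BC12L, H4C6 and H4C7 were those at 0 throughout. The mixed ones were H1-1, H2AC25, H2BC1, H2BC3 and H3C12, whose highest value in any library was 1.84 log2 RPKM, in H3C12. H2AC1 and H2BC1 are known mainly from the testis. The test across all genes took those above 0 in at least 3 of the 6 libraries, 12737 in all, and 61 histone genes passed this filter.

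Most histone genes were lower in the NCCRP1 clones by a modest amount, and none of them passed the test. Among the 59 genes above 0 in every library, 52 (88.1%) had a lower mean in NCCRP1 than in mock clones, where 53% of all such genes did. Their median difference, NCCRP1 minus mock, was -0.39 on the log2 scale, beside -0.02 for all tested genes. In 19 of the 59 genes (32.2%) every NCCRP1 clone lay below every mock clone, and in none was every NCCRP1 clone above every mock clone; the share below was 6.88% over all genes. No histone gene reached an adjusted p of 0.05 in limma (0 of 61, where 0.102% of all tested genes did), and the lowest adjusted p was 0.229. At an unadjusted p under 0.05 there were 20 of 61 histone genes (32.8%), all lower in NCCRP1 clones, where 3.79% of all tested genes were lower at that level. Fewer cells in S phase and less histone mRNA per cell cannot be told apart in RNA from bulk cultures.

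One clone lay furthest from the rest. NCCRP1 clone 1 was the lowest of the 6 libraries for 46 of the 59 genes (78.0%; 19.3% of all genes), and mock clone 1 was the highest for 35 (59.3%; 15.7% of all genes). These were also the libraries with the most and the fewest estimated reads, and the part of depth in the result was not tested. Against the mean of the 3 mock clones, the median histone gene differed by -0.67 in NCCRP1 clone 1, by -0.18 in NCCRP1 clone 6 and by -0.22 in NCCRP1 clone 17. NCCRP1 clone 1 was below every mock clone for 50 of the 59 genes (84.7%; 29.2% of all genes), NCCRP1 clone 6 for 24 (40.7%; 25.8% of all genes) and NCCRP1 clone 17 for 26 (44.1%; 23.9% of all genes). Without NCCRP1 clone 1 the median difference was -0.24, 47 of the 59 genes had a lower mean (50.5% of all genes), and 19 did not overlap (11.3% of all genes). Then 9 of 61 were at an unadjusted p under 0.05, of which 8 were lower (3.6% of all genes). Without mock clone 1 the median difference was -0.32, 19 genes did not overlap (11.2% of all genes) and 9 of 61 were at an unadjusted p under 0.05, of which 8 were lower (2.74% of all genes). Sequencing run 15 holds clone 1 as its only NCCRP1 clone, and run 14 holds clone 5 as its only mock clone. Within run 15 the median difference was -0.69, with 57 genes lower in mean (51.5% of all genes). Within run 14 it was -0.24, with 36 lower in mean (55.7% of all genes). Within run 15, 53 genes were lower without overlap (39.4% of all genes) and 38 of 61 were lower at an unadjusted p under 0.05 (9.18% of all genes). Within run 14, 33 genes were lower without overlap (41.5% of all genes) and 7 of 61 were lower at an unadjusted p under 0.05 (3.2% of all genes).

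All 5 classes were lower on average in the NCCRP1 clones, although within run 14 the H1 mean was higher, by 0.175. The mean difference over the genes above 0 in every library was -0.50 for H4 (13 genes), -0.38 for H2A (15 genes), -0.37 for H2B (15 genes), -0.25 for H3 (12 genes) and -0.19 for H1 (4 genes), all on the log2 scale. A lower mean was found in 12 of 13 H4 genes, 15 of 15 H2A genes, 13 of 15 H2B genes, 9 of 12 H3 genes and 3 of 4 H1 genes (53% of all genes). Groups did not overlap in 6 H4, 6 H2A, 5 H2B and 2 H3 genes and in no H1 gene, beside 6.88% of all genes that were lower without overlap. With only 4 H1 genes, none is near that share. The order of the classes was not fixed: H1 was nearest to 0 here, but H3 was within run 15, at -0.439 beside -0.614 for H1. Without NCCRP1 clone 1 the class means were -0.34 for H4, -0.23 for H2A, -0.16 for H2B, -0.13 for H3 and -0.03 for H1.

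Taking each gene relative to its own mean over the 6 libraries shows the clones one by one. H4 genes averaged -0.55, -0.03 and -0.16 in NCCRP1 clones 1, 6 and 17, versus 0.53, 0.04 and 0.18 in mock clones 1, 4 and 5. The H2A average was -0.49, 0.02 and -0.10 in the same NCCRP1 clones, versus 0.33, 0.08 and 0.16 in the mock clones. For H2B it was -0.59, 0.03 and 0.01 in NCCRP1 clones, versus 0.22, 0.12 and 0.21 in mock clones. In these 3 classes every NCCRP1 average lay below every mock average, with NCCRP1 clone 1 far below the other two and NCCRP1 clone 6 close to mock clone 4. H3 genes averaged -0.37, -0.00 and -0.01 in NCCRP1 clones, versus 0.18, -0.03 and 0.23 in mock clones. H1 genes averaged -0.41, 0.10 and 0.03 in NCCRP1 clones, versus 0.39, 0.01 and -0.11 in mock clones. For H3 and H1 the groups overlapped, since mock clone 4 or 5 lay below NCCRP1 clones 6 and 17.

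**Figure D1:**
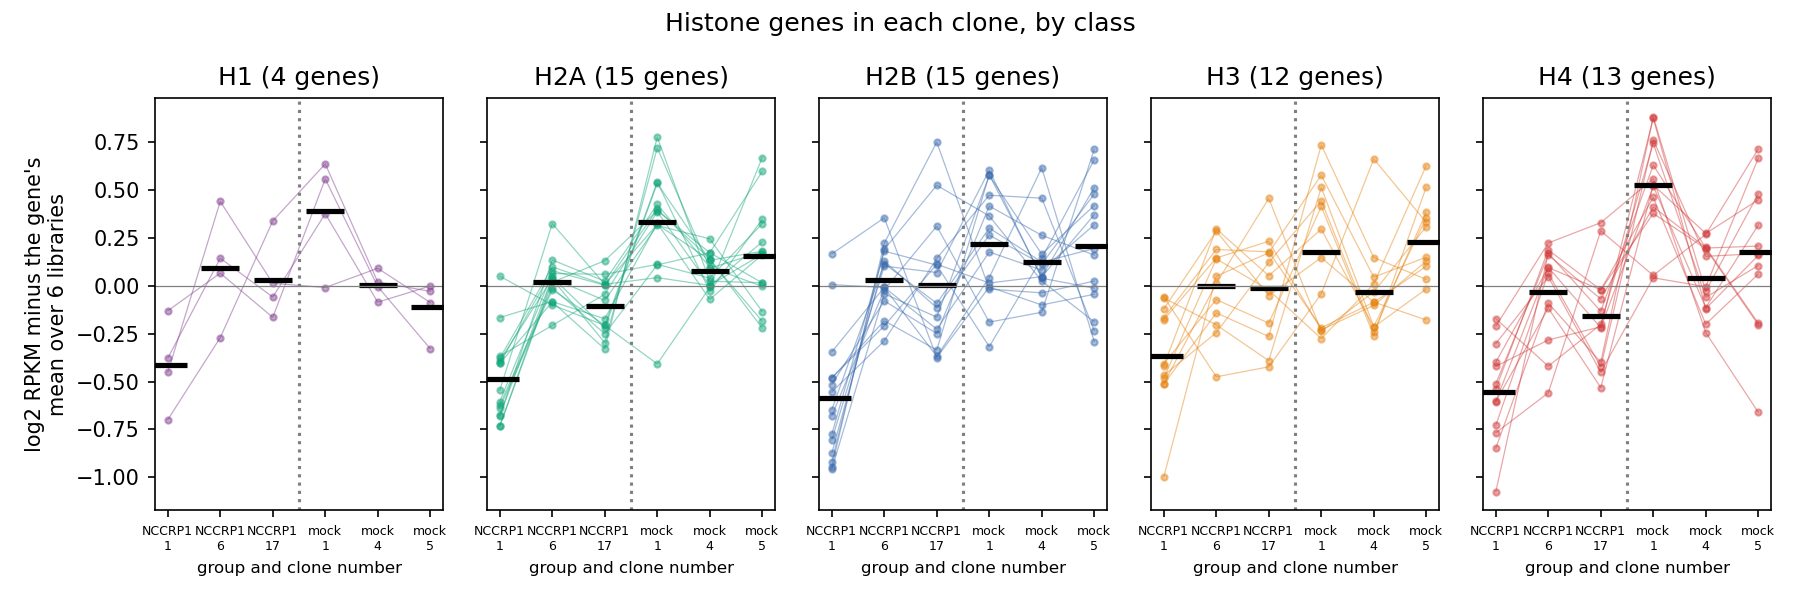
Log2 RPKM of each histone gene minus that gene's mean over the 6 libraries (vertical axis) in each clone (horizontal axis), 1 panel per class; thin lines join the values of 1 gene and have no meaning as an order of clones, and black bars are the class means. The mean of NCCRP1 clone 1 is the lowest in every class, from -0.37 for H3 to -0.59 for H2B, and the mean of mock clone 1 is the highest for H1, H2A, H2B and H4.

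Summed over a class, RPKM gives weight to the most abundant copies. H4 genes summed to 3565, 5209 and 4176 RPKM in NCCRP1 clones 1, 6 and 17, versus 6732, 5157 and 6235 in mock clones 1, 4 and 5, so that NCCRP1 clone 6 passed mock clone 4. H2A genes summed to 2469, 3221 and 3019 RPKM in NCCRP1 clones, versus 4058, 3401 and 3687 in mock clones, and did not overlap. The ratio of the group means, NCCRP1 over mock, was 0.715 for H4, 0.781 for H2A, 0.845 for H3, 0.852 for H2B and 0.878 for H1. All 69 genes together summed to 18303 ± 2728 RPKM in NCCRP1 clones and 22703 ± 2599 RPKM in mock clones (SD, n = 3 each), a ratio of 0.806, and these groups overlapped. The make-up of the sum was alike: H4 took 22.9%, 24.8% and 22.8% of it in NCCRP1 clones 1, 6 and 17, versus 27.0%, 26.0% and 26.7% in mock clones 1, 4 and 5, and this was the class whose shares did not overlap. H2A took 15.3% to 16.5% in NCCRP1 clones and 15.8% to 17.1% in mock clones.

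**Figure D2:**
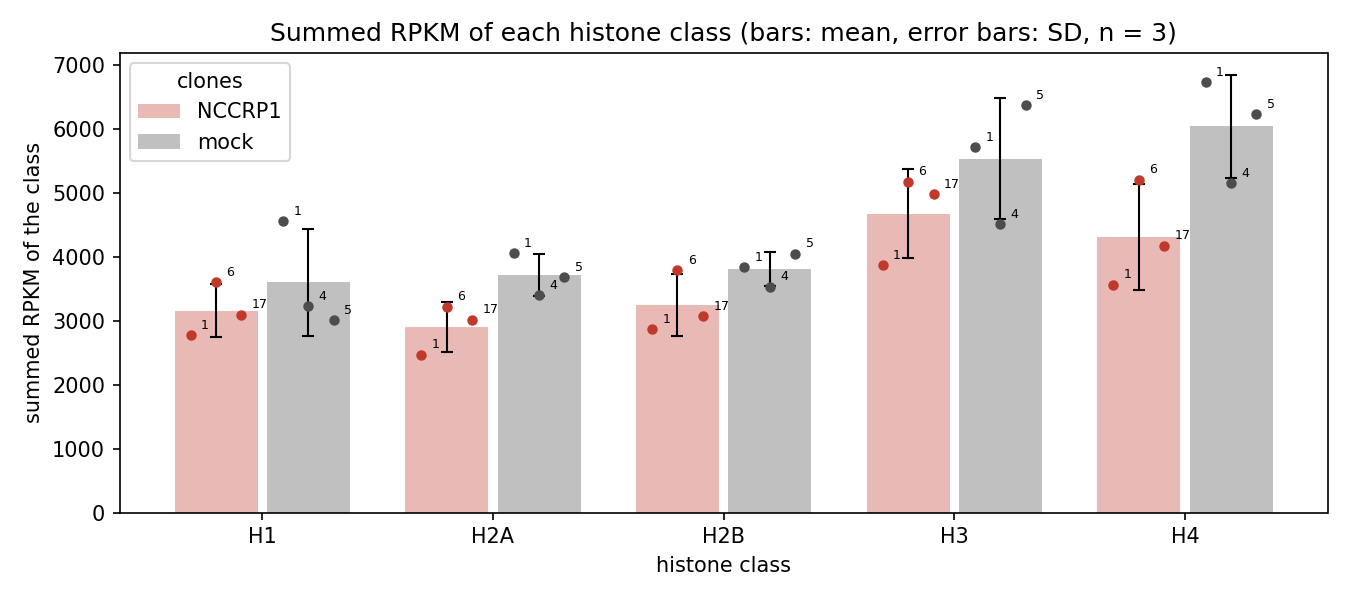
Summed RPKM of each histone class (vertical axis) for NCCRP1 and mock clones; bars are means over 3 clones, error bars are SDs, and points are single clones with their numbers. H2A is the class in which the 3 NCCRP1 sums, 2469 to 3221, all lie below the 3 mock sums, 3401 to 4058.

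The stem-loop that ends these mRNAs was sought as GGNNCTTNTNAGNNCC, where N is any base, on the sense strand after the stop codon, in GENCODE v29 transcripts (GRCh38). It was found in 31 histone genes, and in 30 of the 31 with at least 80 annotated bases after the stop; for 34 genes no annotated sequence follows the stop codon, so no search could be made. It began 23 to 68 bases after the stop, with a median of 37. One form was shared by H2A, H2B and H3 genes, and H4 genes had forms of their own, with a C-G pair in place of a U-A pair in the stem. The sites below are shown because each stands for one form, with the stem-loop in capitals:
H2BC15: ccccaaaGGCTCTTTTCAGAGCCactcagt
H2BC4: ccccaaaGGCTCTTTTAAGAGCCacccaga
H4C8: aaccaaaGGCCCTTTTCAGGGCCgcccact
H4C14: tcccaaaGGCCCTTTTTAGGGCCgaccact
H2AC11: aaccaacGGCTCTTTTCAGGGCCacccacg
H3C6: atccaaaGGCTCTTCTCAGAGCCaacca
The form of H2BC15 was found in 17 genes, 6 of H2A, 8 of H2B and 3 of H3. That of H2BC4 was found in 4 genes, that of H4C8 in 5 and that of H4C14 in 3, and the last 2 in 1 gene each. The 29 genes with a stem-loop and a value above 0 in every library had a median difference of -0.28, and the other 30, most of them with no annotated sequence to search, one of -0.44.

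Promoter sequence differed by class as well. RefSeq promoters (GRCh38.p14, 250 bases before to 50 bases after the start) were matched for 63 of the 69 genes and searched on both strands. The octamer ATTTGCAT, the site of the POU factor OCT1, was in 11 of 16 H2A, 14 of 18 H2B and 1 of 11 H3 promoters and in none of H1 or H4, beside 1.67% of 15285 protein-coding promoters. The letters AAACACA, known as the H1 box, were in 5 of 5 H1, 2 of 11 H3 and 1 of 16 H2A promoters and in none of H2B or H4, beside 4.16% of all. GGTCCG, the core of the H4 element bound by HINFP, was in 12 of 13 H4 promoters, in 1 each of H2A, H2B and H3 and in none of H1, beside 14.6% of all. CCAAT was in every H1, H2A, H2B and H3 promoter and in 3 of 13 H4 promoters (36.5% of all), and TATAAA in 42 of 63 (9.58% of all). H2A and H2B genes that start close to each other share promoter sequence, so those counts are not independent. An octamer counted for a gene of either class can be the one that lies nearer to its partner's start. The H3 promoter with the octamer, that of H3C4, is the same interval as that of H2AC7 in RefSeq and is counted in both classes. H2AC17 and H2BC17 start from the same stretch in opposite directions. The 120 bases before the start of H2BC17 hold no octamer. That gene was counted through the wider searched window, which takes in the octamer of H2AC17. The 120 bases before the start of 5 genes are printed as examples, with the motifs above in capitals:
H1-4: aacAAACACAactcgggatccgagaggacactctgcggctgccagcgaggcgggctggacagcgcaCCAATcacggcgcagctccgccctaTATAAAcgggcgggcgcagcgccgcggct
H2AC17: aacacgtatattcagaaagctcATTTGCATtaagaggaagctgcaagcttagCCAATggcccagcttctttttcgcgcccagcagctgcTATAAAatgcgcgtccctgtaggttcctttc
H2BC17: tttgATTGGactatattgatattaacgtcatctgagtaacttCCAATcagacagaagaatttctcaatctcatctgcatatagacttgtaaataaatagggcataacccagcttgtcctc
H3C14: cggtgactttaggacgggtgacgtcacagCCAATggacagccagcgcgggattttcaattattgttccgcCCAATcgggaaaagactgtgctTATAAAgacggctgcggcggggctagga
H4C5: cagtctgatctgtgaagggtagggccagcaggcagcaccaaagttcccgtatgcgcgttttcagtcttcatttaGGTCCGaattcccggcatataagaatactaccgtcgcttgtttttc
They lie at chr6:26156209-26156328 on the plus strand (H1-4), chr6:27893186-27893305 on the minus strand (H2AC17), chr6:27893305-27893424 on the plus strand (H2BC17), chr1:149841209-149841328 on the minus strand (H3C14) and chr6:26204490-26204609 on the plus strand (H4C5), in GRCh38.p14. The median difference was -0.35 in the 23 genes with the octamer and -0.40 in the 32 without it, -0.47 in the 14 with the H4 element letters and -0.38 in the 41 without them. These are the same classes seen from their promoters and add no independent count.

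H4 is among the most conserved proteins known, and 14 of the 15 H4 genes encode one identical protein of 103 residues in GENCODE v29. H4C3 was the most abundant, with 31.2% of the class RPKM, at 10.31, 10.66 and 10.16 log2 RPKM in NCCRP1 clones 1, 6 and 17 and 10.65, 10.61 and 11.28 in mock clones 1, 4 and 5. Its groups overlapped, through NCCRP1 clone 6, and its difference was -0.47 (SE 0.27, adjusted p = 0.782). H4C16, the member on chromosome 12, followed at 8.96, 9.45 and 9.34 in NCCRP1 clones and 9.82, 9.16 and 9.42 in mock clones, with overlapping groups. The values of H4C5 were 8.34, 9.14 and 8.65 in NCCRP1 clones and 9.83, 9.22 and 9.24 in mock clones. H4C5 did not overlap, although NCCRP1 clone 6 came close to the lowest mock clones, and its difference was -0.72 (SE 0.26, adjusted p = 0.522).

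The lowest p of any histone gene belonged to H4C1. Its values were 7.96, 8.45 and 8.03 log2 RPKM in NCCRP1 clones 1, 6 and 17 and 9.09, 8.84 and 9.02 in mock clones 1, 4 and 5. The 3 mock clones lay close together and all above the 3 NCCRP1 clones, and the difference was -0.83 (SE 0.20), 0.561 on the linear scale (adjusted p = 0.229). H4C8 had the widest difference of the class, with 6.94, 7.70 and 7.39 in NCCRP1 clones and 8.67, 7.76 and 8.27 in mock clones. Here NCCRP1 clone 6 and mock clone 4 nearly met, and the difference was -0.89 (SE 0.26, adjusted p = 0.363). H4C11 was at 6.12, 6.26 and 6.33 in NCCRP1 clones and at 7.42, 6.42 and 6.70 in mock clones, a difference of -0.61 (SE 0.23, adjusted p = 0.543). Mock clone 1 stood out above all other libraries for that gene. In all, 7 of 13 H4 genes had an unadjusted p under 0.05, all lower (3.79% of all genes). H4C11 and H4C12, identical in coding sequence, are both among these 7 and may not be separate measurements. The 1 H4 gene with a higher mean was H4C9, at 6.42, 6.86 and 6.96 in NCCRP1 clones and 7.19, 6.39 and 5.97 in mock clones.

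H2A genes encode 11 proteins in these 17 copies, and 5 of the genes on chromosome 6 share one of them. The most abundant was H2AC6, with 16.8% of the class RPKM, at 8.94, 9.03 and 8.94 log2 RPKM in NCCRP1 clones 1, 6 and 17 and 9.43, 9.04 and 9.27 in mock clones 1, 4 and 5. The NCCRP1 clones were nearly equal and mock clone 4 lay just above them, and the difference was -0.28 (SE 0.20, adjusted p = 0.863). H2AC11 was at 8.06, 8.67 and 8.43 in NCCRP1 clones and 8.79, 8.85 and 9.28 in mock clones, without overlap, a difference of -0.59 (SE 0.22, adjusted p = 0.565). H2AC8 read 7.88, 8.04 and 8.20 in NCCRP1 clones and 8.63, 8.24 and 8.47 in mock clones. It did not overlap either, by a narrow margin between NCCRP1 clone 17 and mock clone 4.

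Less abundant H2A copies had the lowest p values of the class. H2AC16 was at 4.46, 5.23 and 4.90 log2 RPKM in NCCRP1 clones 1, 6 and 17 and 5.91, 5.29 and 5.37 in mock clones 1, 4 and 5 (difference -0.66, SE 0.22, adjusted p = 0.462). H2AC15 was at 4.80, 5.52 and 5.26 in NCCRP1 clones and 6.01, 5.61 and 5.66 in mock clones (difference -0.57, SE 0.20, adjusted p = 0.486). In both, NCCRP1 clone 1 was the lowest and mock clone 1 the highest, and NCCRP1 clone 6 was just under mock clone 4. H2AC17 was at 5.07, 5.69 and 5.50 in NCCRP1 clones and 6.25, 5.68 and 6.06 in mock clones, where NCCRP1 clone 6 and mock clone 4 crossed. H2AC18 and H2AC19, an identical pair on chromosome 1, differed by -0.21 and -0.18 with overlapping groups. Altogether 6 of 15 H2A genes had an unadjusted p under 0.05, all lower (3.79% of all genes).

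H2B genes are the most varied core class, with 15 proteins in 19 copies. H2BC4 led with 33.6% of the class RPKM, at 10.36, 10.55 and 9.82 log2 RPKM in NCCRP1 clones 1, 6 and 17 and 10.19, 10.10 and 10.15 in mock clones 1, 4 and 5. NCCRP1 clones lay on both sides of the 3 close mock values, and its difference was 0.10 (SE 0.25, adjusted p = 0.988). Quantile normalization and leaving out NCCRP1 clone 6 turned that sign, to -0.03 and -0.05. H2BC13, the next, was at 9.23, 9.56 and 9.35 in NCCRP1 clones and 9.75, 9.65 and 9.89 in mock clones, without overlap (difference -0.39, SE 0.21, adjusted p = 0.759). H2BC10 was at 7.17, 8.12 and 8.05 in NCCRP1 clones and 7.63, 8.09 and 8.60 in mock clones, and H2BC11 at 7.06, 7.97 and 7.94 in NCCRP1 clones and 8.47, 7.91 and 7.86 in mock clones. In both of these NCCRP1 clone 1 alone lay below the mock clones.

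H2BC12 had the lowest p of the class. Its values were 6.46, 6.76 and 6.61 log2 RPKM in NCCRP1 clones 1, 6 and 17 and 7.53, 6.99 and 7.32 in mock clones 1, 4 and 5, with a difference of -0.67 (SE 0.17, adjusted p = 0.294). The NCCRP1 clones lay close to each other and below every mock clone. H2BC17 was at 5.23, 6.15 and 6.03 in NCCRP1 clones and 6.77, 6.36 and 6.61 in mock clones (difference -0.78, SE 0.23, adjusted p = 0.379). H2BC15 was at 7.38, 7.82 and 7.65 in NCCRP1 clones and 8.32, 8.16 and 8.06 in mock clones (difference -0.56, SE 0.18, adjusted p = 0.417), and neither gene overlapped. H2BC9 was at 5.97, 6.97 and 6.73 in NCCRP1 clones and 7.11, 6.96 and 7.33 in mock clones, where NCCRP1 clone 6 and mock clone 4 were all but equal. Of 16 H2B genes tested, 4 had an unadjusted p under 0.05, all lower (3.79% of all genes).

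H3 genes of the rule encode only 2 proteins, one from the 10 genes on chromosome 6 and one from H3C13, H3C14 and H3C15 on chromosome 1. They are known as H3.1 and H3.2. H3C7 led the class with 34.6% of its RPKM, at 10.34, 10.67 and 10.55 log2 RPKM in NCCRP1 clones 1, 6 and 17 and 11.16, 10.48 and 11.26 in mock clones 1, 4 and 5. Mock clone 4 lay with the NCCRP1 clones, and the difference was -0.45 (SE 0.27, adjusted p = 0.810). H3C2 was at 9.04, 9.67 and 9.50 in NCCRP1 clones and 9.25, 9.53 and 10.15 in mock clones, and H3C8 at 8.54, 9.26 and 9.01 in NCCRP1 clones and 9.26, 8.75 and 8.95 in mock clones. Neither separated the groups. The H3.2 genes H3C14 and H3C15 had a slightly higher mean in NCCRP1 clones, with H3C14 at 8.95, 9.28 and 9.36 in NCCRP1 clones and 8.90, 9.03 and 9.26 in mock clones (difference 0.13, SE 0.21, adjusted p = 0.965).

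H3C4 and H3C3 were the H3 genes without overlap. H3C4 was at 7.18, 7.55 and 7.43 log2 RPKM in NCCRP1 clones 1, 6 and 17 and 8.43, 7.84 and 7.73 in mock clones 1, 4 and 5 (difference -0.61, SE 0.21, adjusted p = 0.486). H3C3 was at 1.95, 1.53 and 1.58 in NCCRP1 clones and 1.96, 2.67 and 2.34 in mock clones (difference -0.64, SE 0.23, adjusted p = 0.520). H3C3 rested on few reads, an estimated 21.2 to 39.2 per library, and NCCRP1 clone 1 and mock clone 1 were all but equal. H3C6 was at 4.00, 3.86 and 3.67 in NCCRP1 clones and 4.58, 3.85 and 4.42 in mock clones, overlapping through mock clone 4. H3C12 was listed at 0, 0 and 1.42 in NCCRP1 clones and at 1.84, 0.82 and 1.33 in mock clones, so no fold change is given. Of 13 H3 genes tested, 3 had an unadjusted p under 0.05, all lower (3.79% of all genes).

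H1 genes encode 5 different proteins, and in these cells nearly all of the class came from a pair of them. H1-2 held 50.7% and H1-4 46.4% of the H1 RPKM. H1-2 was at 10.35, 10.87 and 10.67 log2 RPKM in NCCRP1 clones 1, 6 and 17 and 11.10, 10.64 and 10.72 in mock clones 1, 4 and 5 (difference -0.19, SE 0.25, adjusted p = 0.953). H1-4 was at 10.46, 10.65 and 10.42 in NCCRP1 clones and 11.14, 10.58 and 10.26 in mock clones (difference -0.15, SE 0.27, adjusted p = 0.969). Mock clone 1 was the highest library for both and the other mock clones mixed with the NCCRP1 clones. H1-5 was at 6.09, 6.99 and 6.56 in NCCRP1 clones and 6.54, 6.64 and 6.46 in mock clones, a difference of 0.00 (SE 0.21). H1-3, at 1.19, 1.62 and 2.23 in NCCRP1 clones and 2.52, 1.91 and 1.86 in mock clones, overlapped too. No H1 gene had an unadjusted p under 0.05, where 3.79% of all genes were lower at that level. The contrast with H4 was not tested, since the members were chosen with results of these data known.

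**Figure D3:**
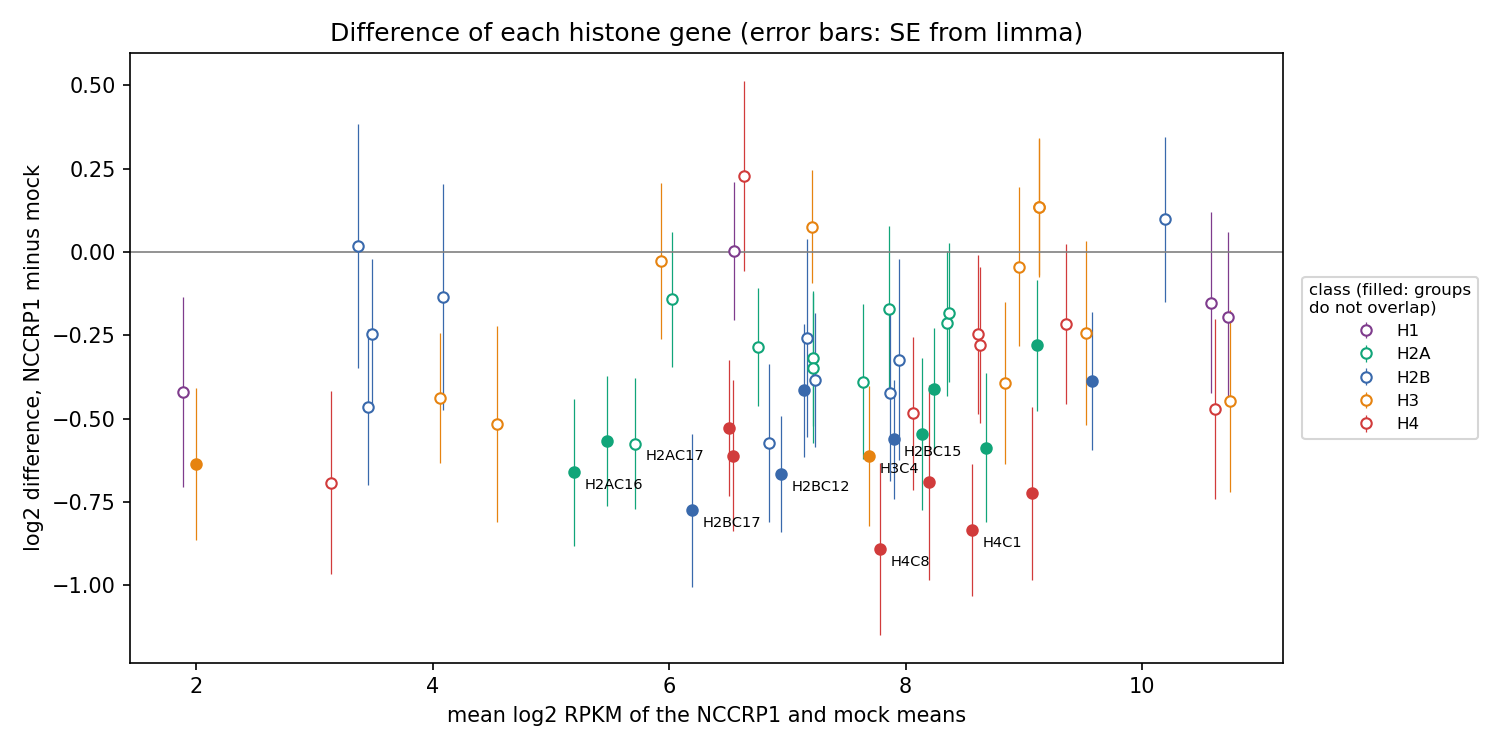
Log2 difference of each histone gene, NCCRP1 minus mock (vertical axis), against its level in log2 RPKM (horizontal axis), for the 59 genes above 0 in every library; colours mark the classes, filled points the 19 genes whose groups do not overlap, and bars the SE from limma. Differences run from -0.89 (H4C8) to 0.23 (H4C9), and the 8 genes of lowest p are named.

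The lower values in NCCRP1 clones were found at low and high levels of expression. Ordered by mean level, the lowest 20 of the 59 genes had a median difference of -0.45, the middle 19 one of -0.42 and the highest 20 one of -0.24. For the 51 genes with a span of at most 1000 bases, the estimated reads per library ran from 21.2 to 21899. Coding GC content of the 59 genes had a median of 61.2%, and tested genes with 60% to 65% GC in their transcripts had a median difference of -0.05. With the GC trend of each library removed, the median histone difference was -0.38, so the measured difference was nearly as large, although 12 genes were then lower without overlap (7.61% of all genes).

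The genes lie in a few clusters, and the clusters differed between clones. RefSeq places 54 members on chromosome 6 in 3 groups, between 25726063 and 26285534 (33 genes), between 27132316 and 27147562 (5 genes) and between 27807479 and 27893891 (16 genes). Another 11 lie on chromosome 1 between 149782689 and 149887965, 2 more on chromosome 1 between 228457364 and 228458558, H4C16 on chromosome 12 and H2BC12L on chromosome 21 (all GRCh38.p14). All 19 genes without overlap lay on chromosome 6. The 47 chromosome 6 genes above 0 in every library had a median difference of -0.44, and 44 of them had a lower mean. For the 11 on chromosome 1 the median difference was -0.14, with 7 lower and none without overlap. Over all genes, 53% had a lower mean and 6.88% were lower without overlap, so none among 11 genes is near that share. Within chromosome 6 the medians were -0.42 in the first group (27 genes), -0.42 in the second (5 genes) and -0.55 in the third (15 genes). This split was looked at after the values had been seen and no test of it is given.

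NCCRP1 clone 1 was low at both loci and the other NCCRP1 clones at chromosome 6. Against the mock mean, the median chromosome 6 gene differed by -0.76 in NCCRP1 clone 1, -0.22 in NCCRP1 clone 6 and -0.33 in NCCRP1 clone 17. The median chromosome 1 gene differed by -0.62 in NCCRP1 clone 1, 0.12 in NCCRP1 clone 6 and -0.06 in NCCRP1 clone 17. Below every mock clone were 41, 24 and 26 of the 47 chromosome 6 genes in NCCRP1 clones 1, 6 and 17, and 8, 0 and 0 of the 11 chromosome 1 genes. Over all genes the shares in these clones were 29.2%, 25.8% and 23.9%. Without NCCRP1 clone 1 the medians were -0.30 on chromosome 6, where 41 of 47 genes had a lower mean, and 0.10 on chromosome 1, where 5 of 11 had. Within run 15, where clone 1 is the only NCCRP1 clone, the loci were alike, at -0.69 and -0.68. Within run 14, where clone 5 is the only mock clone, they were apart, at -0.35 on chromosome 6 and 0.24 on chromosome 1. No chromosome 1 gene had a lower mean there. The chromosome 1 genes include 3 pairs of near-identical copies, so they hold fewer than 11 separate measurements.

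**Figure D4:**
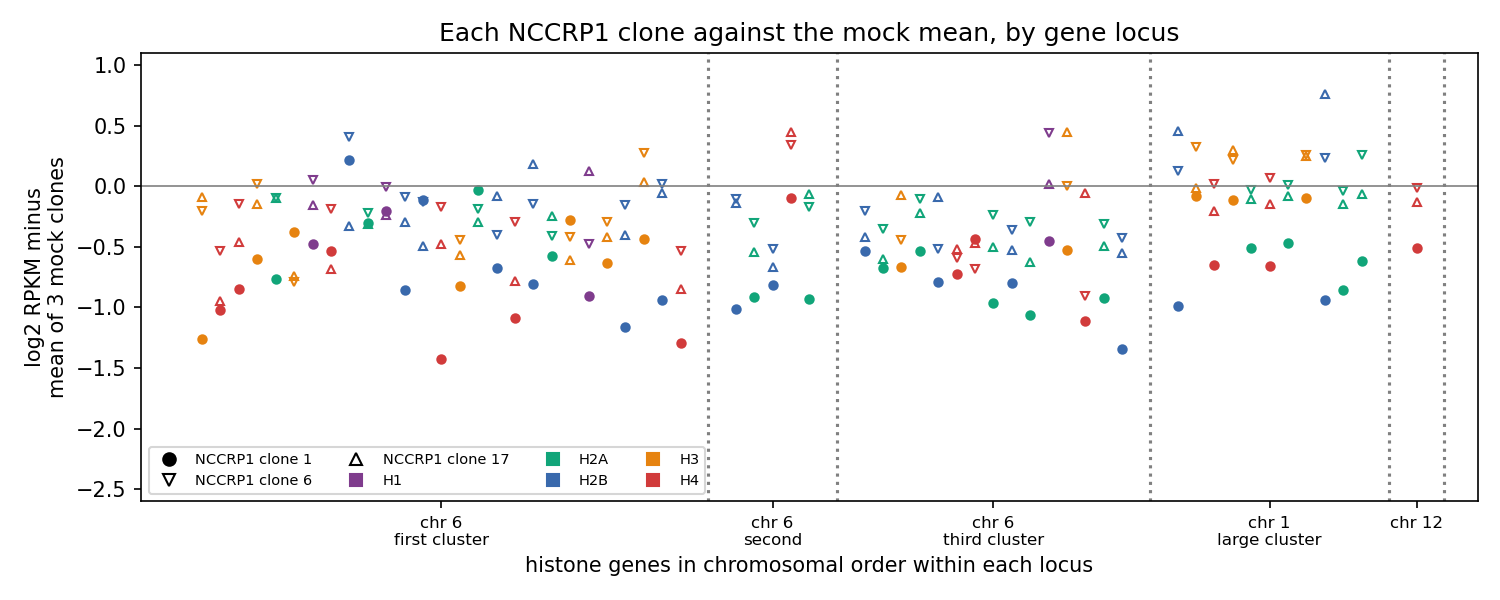
Log2 RPKM in each NCCRP1 clone minus the mean of the 3 mock clones (vertical axis) for the 59 histone genes in chromosomal order within each locus (horizontal axis, not to scale); filled circles are NCCRP1 clone 1, downward triangles clone 6 and upward triangles clone 17, and colours mark the classes. On chromosome 6 the medians of clones 1, 6 and 17 are -0.76, -0.22 and -0.33, and on chromosome 1 they are -0.62, 0.12 and -0.06.

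Genes interspersed with the histone genes on chromosome 6 had a median difference near that of all genes. Of 19 other protein-coding genes between the first and last member, 13 were tested, and their median difference was -0.04 with none called. The 13 include H1-6, a linker histone gene outside the symbol rule, at 0 in NCCRP1 clone 1 and 0.27 to 1.51 in the other libraries. The other 12 were above 0 in every library. The average of these 12 relative to the gene means was -0.15, 0.07 and 0.11 in NCCRP1 clones 1, 6 and 17, versus -0.12, -0.02 and 0.12 in mock clones 1, 4 and 5. BTN3A3, a butyrophilin gene of this region, was at 3.01, 3.74 and 3.76 log2 RPKM in NCCRP1 clones and 2.89, 3.36 and 3.30 in mock clones. HFE, the haemochromatosis gene, was at 4.05, 4.30 and 4.19 in NCCRP1 clones and 3.67, 4.16 and 3.97 in mock clones, so the NCCRP1 mean was the higher one for both. ZNF322, a zinc finger gene, went the other way, at 2.28, 2.18 and 2.14 in NCCRP1 clones and 2.24, 2.37 and 2.84 in mock clones, and 8 of the 13 had a lower mean. The 15 nearest tested genes on each side outside had a median of -0.10, and the 30 around the chromosome 1 cluster one of -0.05.

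Many H2A and H2B genes start back to back from one promoter stretch, as H2AC17 and H2BC17 do. Members within 1000 bases in opposite directions formed 12 such pairs, and in 10 of them both genes were above 0 in every library. In 8 of these 10 both partners had a lower mean in NCCRP1 clones. Taken singly, 88.1% of histone genes and 53% of all genes had a lower mean, which is no measure for pairs. No share or gap was computed for unpaired members, so whether partners were more alike than other members was not tested. The partners' differences lay a median of 0.19 apart on the log2 scale. Their levels lay 0.48 to 3.85 log2 RPKM apart, with a median of 1.08. H2AC15 and H2BC15 had differences of -0.57 and -0.56 while H2BC15 was more abundant by 2.42. H2AC6 and H2BC4 parted in sign, at -0.28 and 0.10.

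Near-identical copies limit what single values mean, since how the authors assigned reads that match several copies is not given in the sources used here. Coding sequence was identical within the pairs H2AC18 and H2AC19, H3C14 and H3C15, H4C14 and H4C15, and H4C11 and H4C12. In the first 3 pairs, all on chromosome 1, the copies never differed by more than 0.066, 0.057 and 0.047 log2 RPKM in any library. H2AC18 was at 7.95, 8.43 and 8.36 in NCCRP1 clones 1, 6 and 17 and 8.75, 8.49 and 8.13 in mock clones 1, 4 and 5, and H2AC19 at 7.99, 8.46 and 8.37 in NCCRP1 clones and 8.69, 8.50 and 8.18 in mock clones. H4C14 was at 8.12, 8.79 and 8.56 in NCCRP1 clones and 9.04, 8.83 and 8.43 in mock clones, and H4C15 at 8.08, 8.80 and 8.59 in NCCRP1 clones and 8.99, 8.81 and 8.41 in mock clones. H3C15 was at 8.96, 9.32 and 9.31 in NCCRP1 clones and 8.91, 9.04 and 9.23 in mock clones, next to the H3C14 values above. Each such pair is best read as 1 measurement with its split uncertain. H4C11 and H4C12, on chromosome 6, differed by up to 0.21 log2 RPKM in a library. Both are counted among the 19 genes without overlap and the 20 at an unadjusted limma p under 0.05. H2BC12 and H2BC12L shared 98.95% of their coding bases, and H2BC12L was listed at 0 throughout. Other pairs within a class were less alike, with median coding identities of 83.3% for H4, 85.0% for H2A, 85.3% for H3, 89.8% for H2B and 72.4% for H1. Averaging the genes with an identical GENCODE v29 protein first gave a median difference of -0.37 over all classes. The H3 mean, which then rests on 2 proteins, was -0.13 in place of -0.25, nearer to 0 than that of H1, at -0.19.

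Some annotated spans overlap other genes. In RefSeq 7 members overlap another member, among them H2BC12 with H4C9 and H3C4 with H2AC7, and H4C15 contains H3C15 and H2AC19. Whether the counting used strand is not stated, so reads of such partners may not be told apart. The 8 members with spans over 1000 bases, H2BC4 and H2BC12 among them, had a median difference of -0.33, and the 51 shorter ones had one of -0.39.

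The lists of histone variants, processing factors, chaperones and cell-cycle genes had median differences nearer to 0 than the histone genes. Replication-independent variants, many of which are made throughout the cell cycle, had a median difference of -0.06 over 12 genes, with none called. Their average was -0.10, 0.03 and 0.09 in NCCRP1 clones 1, 6 and 17, versus 0.13, -0.05 and -0.11 in mock clones 1, 4 and 5, in which mock clone 5 and NCCRP1 clone 1 were the lowest. H1-10, a linker histone variant, was at 7.55, 7.70 and 7.91 log2 RPKM in NCCRP1 clones and 7.40, 7.48 and 6.95 in mock clones, higher without overlap but not past the test (difference 0.45, SE 0.19, adjusted p = 0.631). H2AZ1, the H2A.Z variant, was at 6.24, 6.43 and 6.34 in NCCRP1 clones and 6.60, 6.47 and 6.54 in mock clones. H2AX, whose product marks DNA breaks when phosphorylated, was at 5.98, 5.64 and 5.86 in NCCRP1 clones and 6.11, 6.05 and 5.65 in mock clones. MACROH2A2 was listed at 0 in NCCRP1 clone 6 and between 1.83 and 2.82 in the other libraries.

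Factors that transcribe histone genes and process their mRNAs had a median difference of -0.03 over 21 tested genes of 23, with none called. SLBP, the stem-loop binding protein, was at 4.70, 5.52 and 5.10 log2 RPKM in NCCRP1 clones 1, 6 and 17 and 5.52, 5.47 and 5.50 in mock clones 1, 4 and 5. NCCRP1 clones 1 and 17 lay below the close mock values and NCCRP1 clone 6 with them, and the difference was -0.39 (SE 0.19, adjusted p = 0.716). SNRPG, a subunit of the Sm ring, was at 5.05, 4.67 and 4.44 in NCCRP1 clones and 4.82, 5.37 and 4.98 in mock clones. UPF1, a helicase that takes part in histone mRNA decay, was at 5.48, 5.59 and 5.49 in NCCRP1 clones and 6.10, 5.83 and 5.43 in mock clones. ZNF473, a zinc finger protein of the U7 machinery, was at 2.65, 2.82 and 2.78 in NCCRP1 clones and 2.41, 2.60 and 2.73 in mock clones. NPAT was listed at 0 in 3 of 6 libraries and RNU7-1, the U7 RNA gene, at 0 in all.

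Histone chaperones, which carry histones to DNA, had a median difference of -0.11 over 24 genes, with 16 lower in mean (53% of all genes) and none called. Of these, 4 were lower and none higher without overlap (6.88% of all genes lower), and 3 were at an unadjusted p under 0.05, all lower (3.79% of all genes). CHAF1A, the large subunit of chromatin assembly factor 1, was at 5.32, 5.67 and 5.41 log2 RPKM in NCCRP1 clones 1, 6 and 17 and 5.97, 5.72 and 5.86 in mock clones 1, 4 and 5 (difference -0.38, SE 0.15, adjusted p = 0.571). TONSL was at 5.07, 4.90 and 5.05 in NCCRP1 clones and 5.57, 5.45 and 5.15 in mock clones, and NASP, which holds soluble H3 and H4, at 4.37, 4.72 and 4.35 in NCCRP1 clones and 4.95, 4.87 and 4.67 in mock clones. CHAF1A and TONSL were lower without overlap, and for NASP the value of NCCRP1 clone 6 passed that of mock clone 5. RBBP7, a histone-binding WD-repeat protein, differed by -0.23.

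Genes of the G1/S transition and DNA replication, which accompany histone expression in S phase, had a median difference of -0.16 over 45 genes with none called. Of these, 39 were lower in mean (53% of all genes), 8 were lower and none higher without overlap (6.88% of all genes lower), and 5 were at an unadjusted p under 0.05, all lower (3.79% of all genes). Their average was -0.22, 0.12 and -0.20 in NCCRP1 clones 1, 6 and 17, versus 0.11, 0.07 and 0.12 in mock clones 1, 4 and 5. NCCRP1 clones 1 and 17 were thus low and NCCRP1 clone 6 was with the mock clones, whereas for the histone genes NCCRP1 clone 1 alone was far below. GINS3, a subunit of the replicative helicase complex, was at 3.38, 3.82 and 3.0 log2 RPKM in NCCRP1 clones and 4.23, 4.22 and 4.06 in mock clones (difference -0.77, SE 0.20, adjusted p = 0.293). UHRF1 differed by -0.63, ORC6 by -0.60 and MCM4 by -0.36, none of them called. Genes of G2 and mitosis had a median difference of 0.06 over 24 genes, and their average was -0.16, -0.19 and 0.37 in NCCRP1 clones, versus -0.16, -0.08 and 0.22 in mock clones. Whether cell-cycle phase took part in the histone difference was not tested.

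Other RNAs without a poly(A) tail had a different order of clones. Of 25 listed, 11 were tested and 13 were listed at 0 in every library. Their median difference was -0.10 with none called, and their average was 0.10, -0.36 and 0.17 in NCCRP1 clones 1, 6 and 17, versus 0.16, -0.00 and -0.06 in mock clones 1, 4 and 5. NCCRP1 clone 6 was the low library here, not NCCRP1 clone 1. VTRNA1-1, a vault RNA, was at 8.61, 8.34 and 8.59 log2 RPKM in NCCRP1 clones and 7.80, 8.04 and 7.94 in mock clones, higher without overlap (adjusted p = 0.379). TERC, the telomerase RNA, was at 6.62, 5.97 and 6.04 in NCCRP1 clones and 6.80, 6.51 and 6.55 in mock clones.

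**Figure D5:**
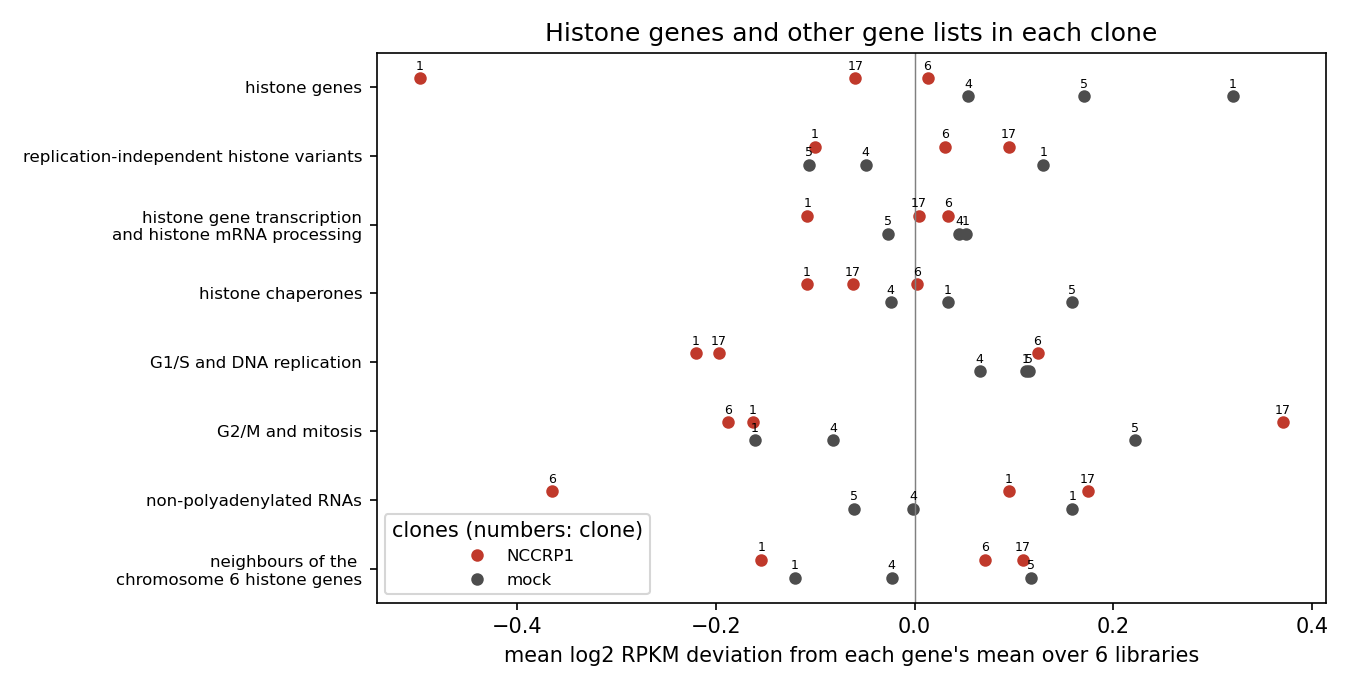
Mean deviation of log2 RPKM from each gene's mean over the 6 libraries (horizontal axis) for the histone genes and 7 other gene lists (vertical axis); each point is 1 clone, NCCRP1 above mock, with its number. For the histone genes NCCRP1 clone 1 is at -0.50 and the other libraries run from -0.06 to 0.32, while for the G1/S genes both NCCRP1 clones 1 and 17 are low, at -0.22 and -0.20.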

How the data were processed

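Total RNA of 6 KYSE150 clones was depleted of ribosomal RNA and sequenced, per the labels' protocols. The submitters' processing notes name hg19 and bedtools 2.25.0 without their roles, and the aligner is not given in the sources used here. The values deposited by the authors were log2 RPKM for 40448 gene IDs, of which 37997 had a RefSeq symbol (GRCh38.p14). Without further scaling they entered limma (version 3.58.1, R version 4.3.3) with group as the sole term and trended, robust, two-sided tests over genes above 0 in at least 3 libraries. P-values were adjusted by the method of Benjamini and Hochberg and called at 0.05; no count model was run, since counts could not be recovered. At the estimated depth, 23.4% to 33.1% of a library's values under 8 reads were whole to a tolerance of 0.005. These shares rest on 116 to 170 values per library, and the next-best depth gave 10.3% to 15.7%. Most such values were not whole, so the estimated reads are approximate. The members and lists were chosen with earlier results of these data known, and no test over them as a set is given. Genes were named by a fixed rule: NCCRP1, per class up to 5 members of highest level and up to 4 of lowest p, per list up to 4 of lowest p. A further list of H2AW, H2BU1 and H4-16 matched nothing, because those genes now carry symbols of the rule, and of the non-polyadenylated list RNU2-2P had no match. Coding and stem-loop sequences came from GENCODE v29 (GRCh38) and promoters from RefSeq. Endothelial markers were at 0, 2 of 3 in every library and the third except in NCCRP1 clone 6.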

Additional observations from a re-analysis of the deposited data

How the results depend on the processing

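Of 1313 values recomputed under other settings, 1250 were held as unchanged. Single genes had to keep their direction and side of the threshold, and counts had to stay within 1.5 times. Class means and the median histone difference had to move by less than the pooled SD among clones of a group, whatever their sign. No histone gene was called under any setting. No paired analysis was possible because the labels pair no mock clone with an NCCRP1 clone. The clone number 1 in both groups is not a pairing. Genes called over the whole table, 13 as reported, numbered 4 with log2(RPKM + 1), 1 with log2(RPKM + 0.1), 3 with no filter, 7 with genes above 0 in every library, 2 with a listed 0 as missing, 5 without robust fitting, 2 with the sequencing run as a term, 0 within run 14, 0 after quantile normalization, 4 with the GC trend removed, and 1 to 28 without a replicate. Within run 15 the median histone difference was -0.690 and the class means were -0.614 for H1, -0.692 for H2A, -0.760 for H2B, -0.439 for H3 and -0.837 for H4; within run 14 the H1 mean was 0.175. Histone genes lower without overlap numbered 53 within run 15 (39.4% of all genes), 33 within run 14 (41.5%) and 12 with the GC trend removed (7.61%); within a run fewer libraries have to be separated. Those at an unadjusted p under 0.05 in either direction numbered 38 of 61 within run 15 (14.2% of all genes), 8 within run 14 (8.14%), 7 of them lower, and 9 to 22 without a replicate (5.24% to 10.7%). NCCRP1 itself differed by 7.39 within run 14, where the mock group is 1 clone. Without mock replicate 1 or 4 it differed by 6.99, and its adjusted p in limma was 0.0964 and 0.0532. The direction of single genes was followed for the named genes only, and unnamed members such as H2AC14 turned within run 14 as well. Among the named genes, directions turned within run 14 for H1-2 (0.0438), H1-3 (0.0632), H1-4 (0.279), H2AC18 (0.262), H2AC19 (0.237), H2BC11 (0.0985), H3C8 (0.192), H4C14 (0.241), H4C15 (0.287), H2AX (0.103) and UPF1 (0.108), and within run 15 for H1-5 (-0.494), H3C14 (-0.0113), H3C15 (-0.0139) and MACROH2A2 (0.407). With the run as a term H1-5 was at -0.0899 and H2AX at 6.94e-05, after quantile normalization H1-5 was at -0.00430 and H2BC4 at -0.0299, and with a listed 0 as missing MACROH2A2 was at 0.00364. Leaving out a replicate gave -0.354 to 0.0900 for H1-4, -0.218 to 0.229 for H1-5, -0.204 to 0.154 for H3C8, -0.441 to 0.0118 for H3C2, -0.0542 to 0.311 for H2BC4 and -1.41 to 0.00364 for MACROH2A2; the cause of these turns was not tested. Quantile normalization tested genes above 0 in every library, so NCCRP1 has no value there. It also has none with only genes above 0 in every library, with a listed 0 as missing, or without any 1 NCCRP1 replicate. The planned grouping by identical RefSeq protein was not run and GENCODE v29 proteins were used, chosen after seeing the data, as were the counts of lower, non-overlapping and unadjusted-p genes and the split by chromosome. Library depth limits the 5 short genes with under 100 estimated reads in some library.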
